A study of Homo sapiens with 6 samples.

Results

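The libraries described here are control replicate 3 and ABS replicate 3, 2 of the 6 libraries of the series, read against replicates 1 and 2 of each group. They were chosen from their own expression values, because these 2 libraries stood apart from the other 4, and not from any label. The difference between replicate 3 and replicates 1 and 2 is therefore given below as a description, without a test. A test is given only for the question of whether the response to treatment differed in the replicate 3 pair. It uses the same 6 libraries, and their choice by expression also bears on it. Its p-values are therefore not those of libraries chosen beforehand.

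All libraries hold polyadenylated RNA from OE33, an established epithelial line from an esophageal adenocarcinoma, grown with 10% serum. Control cells (Ctrl) were untreated. ABS cells were given acidified bile salts, 200 µM at pH 4.0 in medium without supplements, for 20 min, and then recovered for 6 h in complete medium. There were 3 replicates per group, called independent biological replicates in the series description. The composition of the bile salt mixture, the handling of the control cells during the exposure, and the culture, extraction and sequencing dates were not given in the sources used here, so what the replicate 3 cultures shared besides their number is unknown. Because 1 cell line was used, no value speaks to other cells.

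Several of the gene programs below are known to follow the state of a culture. Sterol synthesis genes are switched on by the transcription factor SREBP2 when membrane cholesterol is low. Genes of the integrated stress response are switched on by ATF4, a factor whose translation rises when amino acids are short or unfolded protein accumulates, and many of them make or import amino acids. The coactivators YAP and TAZ, which bind DNA through TEAD factors, respond to cell attachment, density and tension, and NF-kB drives chemokine and cytokine genes in epithelium. Metallothionein genes and the zinc exporter gene *SLC30A1* are switched on by the zinc sensor MTF1.

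Promoter sequence of 5 genes is printed because the results turn on the programs they belong to. *SREBF2*, which encodes SREBP2, is shown for sterol synthesis, *CTGF* for YAP-TEAD targets, *CXCL8* and *CXCL1* for NF-kB and *SLC30A1* for zinc. Each run lies before the gene's start on the gene's own strand, was taken from RefSeq promoters on GRCh38.p14, and leaves out bases inside the GENCODE gene. Capitals mark every match to a short motif on either strand, namely TCACNCCAC for SREBP, GGAATG for TEAD, GGNNTTTCC for NF-kB and TGCGCNC or TGCACNC for MTF1. Overlap between matches of different motifs was not examined.
SREBF2, chr22:41832855-41833078, plus strand: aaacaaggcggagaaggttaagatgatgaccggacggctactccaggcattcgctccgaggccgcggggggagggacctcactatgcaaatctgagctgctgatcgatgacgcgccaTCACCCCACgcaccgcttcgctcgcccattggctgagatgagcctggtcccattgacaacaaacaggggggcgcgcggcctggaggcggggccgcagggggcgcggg
CTGF, chr6:131951374-131951622, minus strand: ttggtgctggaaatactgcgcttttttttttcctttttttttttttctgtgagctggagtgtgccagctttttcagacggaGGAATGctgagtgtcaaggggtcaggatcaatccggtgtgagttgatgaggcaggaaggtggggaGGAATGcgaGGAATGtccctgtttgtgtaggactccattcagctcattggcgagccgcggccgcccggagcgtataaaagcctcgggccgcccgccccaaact
CXCL8, chr4:73740319-73740505, plus strand: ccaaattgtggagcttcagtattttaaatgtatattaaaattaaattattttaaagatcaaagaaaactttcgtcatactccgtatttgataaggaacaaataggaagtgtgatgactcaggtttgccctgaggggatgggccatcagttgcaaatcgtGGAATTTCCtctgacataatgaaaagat
CXCL1, chr4:73869143-73869392, plus strand: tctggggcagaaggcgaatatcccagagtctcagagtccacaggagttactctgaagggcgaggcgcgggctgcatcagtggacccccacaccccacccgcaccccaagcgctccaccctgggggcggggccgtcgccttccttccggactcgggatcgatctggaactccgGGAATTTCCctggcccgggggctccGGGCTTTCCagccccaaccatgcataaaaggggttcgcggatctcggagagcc
SLC30A1, chr1:211579162-211579411, minus strand: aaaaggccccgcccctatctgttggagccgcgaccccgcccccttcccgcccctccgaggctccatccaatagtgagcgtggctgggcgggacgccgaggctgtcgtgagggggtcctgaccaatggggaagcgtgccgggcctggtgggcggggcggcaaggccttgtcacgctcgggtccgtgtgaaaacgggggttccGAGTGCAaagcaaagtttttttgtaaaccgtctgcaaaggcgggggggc
The *CTGF* run holds 3 TEAD matches, *CXCL1* holds 2 NF-kB matches, and the other runs hold 1 match each. A promoter was found for 10178 of the 13768 tested genes. In the 250 bases before the start, the NF-kB motif was found in 12 of 20 promoters of the NF-kB list (60%) and in 5.94% of the 10178, and the TEAD motif in 4 of 14 promoters of YAP-TEAD targets (28.6%) and in 9.36%. The MTF1 motif was found in 3 of 5 promoters of the metallothionein and zinc list (60%) and in 33.8% of all, and the SREBP motif in 1 of 17 sterol promoters (5.88%) and in 0.874% of all. These matches describe the sequence and are not evidence of binding.

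Library totals lay between 22145676 and 25235686 counts, with the replicate 3 libraries inside that range. Levels are CPM, the usual depth-scaled count of edgeR, after TMM scaling (the trimmed mean of M values), and differences are log2 of that level with a prior count of 2. The replicate 3 libraries had the highest scaling factor of their group (1.0248 and 1.0283 against 0.9777 to 0.9941 in the other 4) and more genes with at least 1 count (19362 and 19927 against 18127 to 18942). The mitochondrially encoded share of counts was 1.91% in control replicate 3, against 2.48% and 2.57% in the other controls, and 2.09% in ABS replicate 3, between the 2.07% and 2.26% of the other ABS libraries. Antisense genes took 0.184% and 0.185% of the counts in the replicate 3 libraries and 0.161% to 0.173% in the others, and sense-intronic genes 0.015% and 0.0148% against 0.0111% to 0.0121%.

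All 6 libraries expressed epithelial markers. The summed level of 13 columnar or intestinal epithelial markers lay between 20701 CPM, in control replicate 3, and 23372 CPM, with *KRT20*, *CDX1* and *TFF3* at 0 in every library. Of 8 immune markers 5 were at 0 throughout, endothelial markers summed to at most 0.27 CPM, fibroblast markers to between 3.02 and 4.59 CPM and squamous markers to between 28.5 and 35.5 CPM. The replicate 3 values of the immune, fibroblast and squamous sums fell within or less than 1 CPM from the range of the other libraries. Median levels over windows of 50 neighbouring genes moved by −0.114 to 0.139 in control replicate 3 and by −0.154 to 0.176 in ABS replicate 3 over 190 windows, and no window moved by as much as 1.5-fold.

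Replicate 3 differed from replicates 1 and 2 mostly by small shifts in many genes. Among 10077 genes with a mean of at least 5 CPM, the median size of the log2 difference was 0.136 for control replicate 3 and 0.144 for ABS replicate 3, against 0.087 between control replicates 1 and 2 and 0.0881 between ABS replicates 1 and 2. Part of that gap is fixed by the choice of libraries. Across these genes the control and the ABS difference had a Pearson correlation of 0.353, which falls to 0.167 over all 13768 tested genes. These are values across genes, which are not independent replicates, and low counts enter both.

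A gene was called apart when replicate 3 differed by at least 1.5-fold from the mean of replicates 1 and 2, outside their range, in the same direction in the control and the ABS libraries. This held for 332 of 13768 genes (2.41%), 247 higher (1.79%) and 85 lower (0.617%) in replicate 3. Most were lowly expressed, with 169 below 1 CPM and 128 between 1 and 5 CPM on average, where counting error alone is large. Above 20 CPM, 15 of 7194 genes (0.209%) were apart. Of the 35 genes apart with a mean of at least 5 CPM, 24 were higher and 11 lower. Without the demand for 1.5-fold, replicate 3 lay outside the range of the other replicates in both groups, and higher, for 2764 genes (20.1%), and lower for 2666 (19.4%). Within 1 group at a time, at least 1.5-fold and outside the range, control replicate 3 was higher for 6.43% of genes and lower for 4.04%, and ABS replicate 3 higher for 7.43% and lower for 3.5%. For 2760 genes (20%) it lay outside on opposite sides in the 2 groups. No gene went from at most 3 counts in the 4 other libraries to at least 20 in both replicate 3 libraries, or the reverse.

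**Figure D1:**
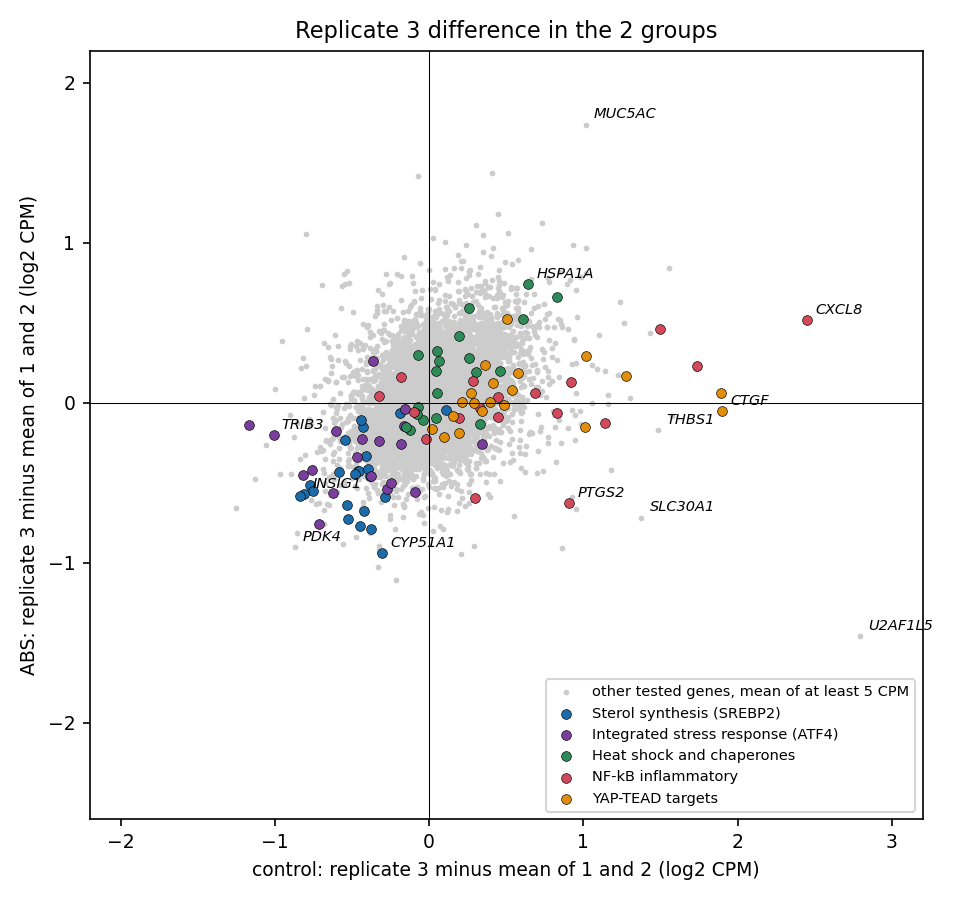
Each point is a gene with a mean of at least 5 CPM, with the log2 CPM difference of replicate 3 from the mean of replicates 1 and 2 in the control libraries on the horizontal axis and in the ABS libraries on the vertical axis. Sterol synthesis and integrated stress response genes (blue and purple) lie mostly in the lower left. NF-kB and YAP-TEAD genes (red and orange) extend to the right, high in control replicate 3, with list medians near 0 on the ABS axis.

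The genes with the largest differences among those higher in replicate 3 of both groups had varied roles. *MUC5AC* (chromosome 11, 1157953 to 1201138), the gel-forming mucin of gastric surface cells, was at 11.3 and 9.28 CPM in control replicates 1 and 2 and 20.8 CPM in replicate 3. In the ABS libraries it was at 7.87, 7.87 and 26.5 CPM, so that replicate 3 was 2.02-fold higher in control and 3.34-fold higher after ABS. Both replicate 3 libraries lay above all 4 others.

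*PDGFA*, a growth factor for mesenchymal cells, was at 13.1, 11.7 and 23.7 CPM in control and at 13.4, 9.92 and 22.9 CPM after ABS. *HSPB8*, a small heat shock protein, was 1.98-fold and 1.72-fold higher in replicate 3, and *GPR157*, an orphan receptor, 1.58-fold and 1.95-fold. Another 7 of the 12 leading genes were *NKTR*, *SYNE1*, *SYNE2*, *GOLGA4*, *CENPE*, *CEP83* and *AKAP9*. They include genes for proteins of the nuclear envelope (*SYNE1*, *SYNE2*), the centrosome (*AKAP9*, *CEP83*), the Golgi (*GOLGA4*) and the kinetochore (*CENPE*), and their annotated exonic lengths run from 6925 bases for *CEP83* to 46064 bases for *SYNE1*. *AKAP9* was at 48.0, 45.9 and 87.2 CPM in control and at 55.5, 46.0 and 84.4 CPM after ABS. *CENPE* was at 20.7, 22.6 and 40.7 CPM and at 27.8, 23.6 and 43.6 CPM, again with both replicate 3 libraries above all others.

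Gene length moved with the difference in the control libraries, and GC content in the ABS libraries. Among 9722 protein-coding genes with a mean of at least 5 CPM, the median difference of control replicate 3 went from −0.089 in the shortest of 10 equal groups of genes to 0.135 in the longest, and that of ABS replicate 3 from 0.004 to 0.041. By GC content it went from 0.02 to −0.013 in control replicate 3 and from −0.08 to 0.10 in ABS replicate 3. Spearman's rho across genes was 0.285 and 0.028 with length and −0.056 and 0.266 with GC content. When each library's trend on length and GC content was removed, a setting added after seeing the data, *SYNE1*, *SYNE2* and *SLC39A10* were no longer apart and the other 19 of the 22 genes named by rank still were. The part of length and GC content in the remaining differences was not tested.

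**Figure D2:**
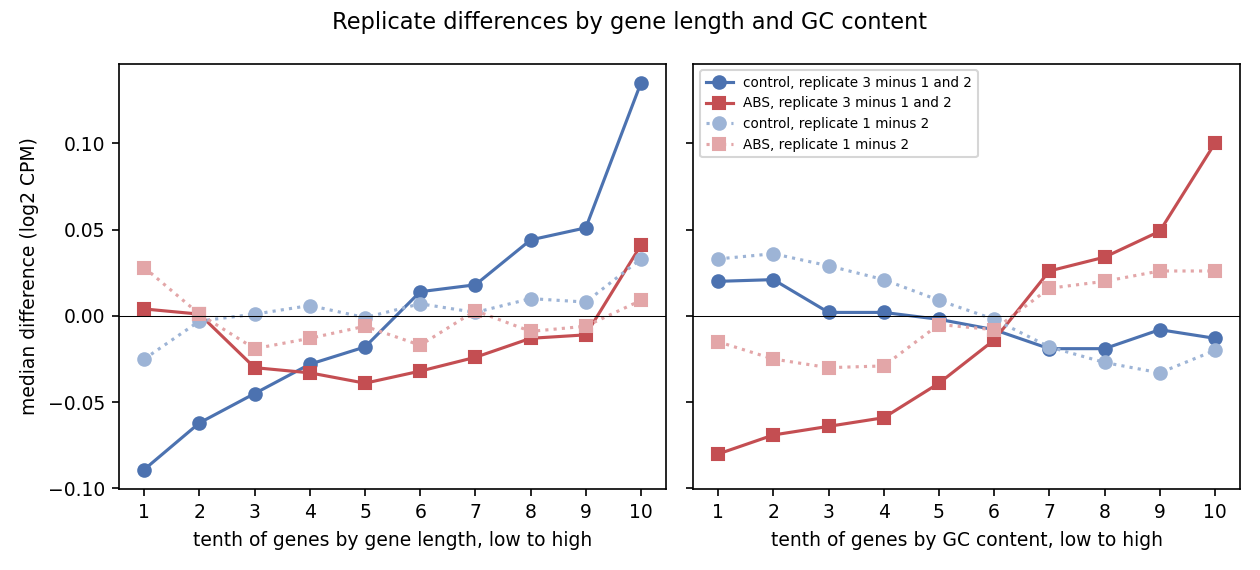
Median log2 CPM difference in 10 equal groups of 9722 protein-coding genes ordered by exonic length (left) and by GC content (right; 9721 genes), for replicate 3 against replicates 1 and 2 (solid) and replicate 1 against replicate 2 (dotted). The control line climbs with length to 0.135 and the ABS line climbs with GC content to 0.10, while both dotted lines stay within 0.05 of 0.

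Genes of lipid, serine and glucose metabolism were among the 10 that were lower by the same rule. *SCD* (chromosome 10, 100347124 to 100364834), which encodes stearoyl-CoA desaturase, was at 993 and 1005 CPM in control replicates 1 and 2 and 632 CPM in replicate 3, and at 933, 963 and 611 CPM after ABS. *PHGDH*, the first enzyme of serine synthesis, was at 28.1, 28.6 and 17.2 CPM in control and at 25.9, 24.4 and 14.8 CPM after ABS. *IGFBP3*, a secreted binder of insulin-like growth factors, was at 1632, 1632 and 1039 CPM and at 1872, 1893 and 1207 CPM. For these genes replicate 3 was the lowest library of each group and replicates 1 and 2 lay close to each other.

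The others were *PDK4*, which inhibits pyruvate dehydrogenase, *ALDOC*, a glycolytic aldolase, *PLA2G4A*, a phospholipase that releases arachidonic acid, *SLC39A10*, a zinc importer, *THBD*, thrombomodulin, the adhesion molecule *CEACAM1*, and *AC093512.2*. The last overlaps the aldolase gene *ALDOA* in the deposited coordinates, and its counts are uncertain. *PDK4* was at 7.27, 6.51 and 3.72 CPM in control and at 7.83, 8.0 and 4.20 CPM after ABS. *SLC39A10* was at 163, 148 and 91.2 CPM and at 135, 149 and 93.0 CPM. With library size alone in place of TMM, *IGFBP3*, *SCD*, *ALDOC*, *PLA2G4A* and *SLC39A10* remained lower in replicate 3 but by less than 1.5-fold in at least 1 group.

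The limit of 1.5-fold had no gap around it. Just inside lay *RNF213* (1.60-fold in control, 1.51-fold after ABS) and *MDN1* (1.63-fold and 1.52-fold). Just outside lay *MTCL1* (1.49-fold and 1.86-fold). Only the desmosome and keratin list had 3 members apart, *KRT17*, *PKP1* and *KRT6A*, and each was below 5 CPM in every library.

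Sterol synthesis was lower in replicate 3 of both groups as a program. Of its 23 tested genes, 22 lay below the range of replicates 1 and 2 in both groups (19.4% of all tested genes did), with a median difference of −0.446 in control and −0.457 after ABS, against 0.006 and 0.009 over all tested genes. The exception was *PMVK*, phosphomevalonate kinase. The summed level of the list was 2783 and 2730 CPM in control replicates 1 and 2 and 1937 CPM in replicate 3, and 2679, 2717 and 1915 CPM after ABS. Under 2 other scalings, with the trends on length and GC content removed and without each of the other 4 libraries, 20 to 22 genes lay below the range, and the median was −0.468 to −0.402 in control and −0.576 to −0.388 after ABS.

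*INSIG1*, a sterol-sensing brake on SREBP2 and itself one of its targets, was at 62.8, 62.2 and 35.6 CPM in control and at 66.4, 69.1 and 45.5 CPM after ABS. *HMGCS1*, which makes the precursor of mevalonate, was at 167, 162 and 120 CPM and at 184, 198 and 112 CPM. In both genes the replicate 3 libraries lay below the other 4. *SREBF2*, whose promoter is printed above, was at 286, 294 and 218 CPM in control and at 291, 291 and 232 CPM after ABS. Among 15 fatty acid synthesis genes, driven by the related factor SREBP1, 12 lay below the range in both groups (19.4% of all tested genes did). Their medians were −0.227 in control and −0.286 after ABS.

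Most genes of the integrated stress response, tRNA synthetase and amino acid and glucose transport lists were lower in the same libraries. Over all tested genes, 19.4% lay below the range in both groups and 20.1% above it. In the integrated stress response list 18 of 22 genes lay below the range in both groups and 0 above it, with medians of −0.37 and −0.299. Among the tRNA synthetase genes it was 17 of 18, all except *KARS*, with medians of −0.211 and −0.249. *PSAT1*, an aminotransferase of serine synthesis, was at 175, 161 and 108 CPM in control and at 142, 146 and 97.6 CPM after ABS. *GARS*, which encodes the glycyl-tRNA synthetase, was at 314, 313 and 219 CPM and at 270, 293 and 215 CPM. Of 15 amino acid and glucose transport genes 10 lay below the range and 0 above it, with medians of −0.167 and −0.277.

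*TRIB3*, a pseudokinase induced by ATF4, followed another course. It was at 172 and 175 CPM in control replicates 1 and 2 and 86.4 CPM in replicate 3, and at 97.8, 103 and 87.1 CPM after ABS. It thus was lower after ABS in replicates 1 and 2 (0.576 of control) but not in the replicate 3 pair (1.01), and the response differed by a log2 product term of 0.81 ± 0.10 (SE; edgeR adjusted p 1.94e-06). *SESN2*, a sensor of leucine and also an ATF4 target, was at 15, 14.8 and 6.58 CPM and at 10.4, 12 and 10.2 CPM.

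Glycolysis genes lay below the range in 15 of 17 cases, with medians of −0.195 and −0.16, and hypoxia targets in 13 of 21, with −0.304 and −0.196. Over all tested genes, 19.4% lay below the range in both groups. *VEGFA*, the hypoxia-induced growth factor of vessels, was at 79.6, 88.0 and 57 CPM in control and at 61.6, 59.5 and 42.4 CPM after ABS. Cytosolic ribosomal protein genes lay below it in 27 of 41 cases, though with medians of only −0.177 in control and −0.066 after ABS, and over the same alternatives 16 to 35 lay below it and the ABS median was −0.123 to 0.003. Housekeeping genes moved the same way, 10 of 15 below the range with medians of −0.113 and −0.161. The medians of the metabolic lists stand beside a shift of that size in housekeeping genes.

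**Figure D3:**
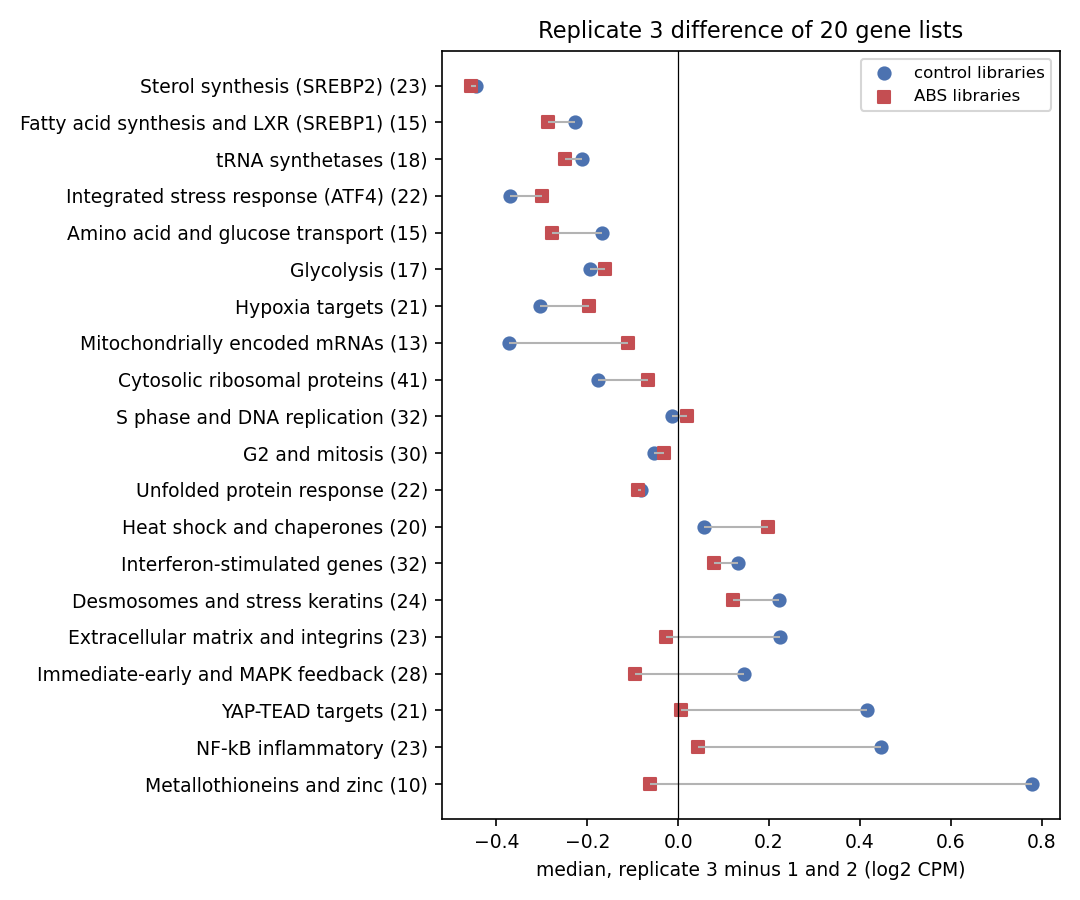
Median log2 CPM difference of replicate 3 from replicates 1 and 2 for 20 gene lists, in the control libraries (blue circles) and the ABS libraries (red squares), with the number of tested genes in parentheses. Sterol synthesis has both medians near −0.45, whereas NF-kB and YAP-TEAD lists have a control median above 0.4 and an ABS median within 0.05 of 0.

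Some heat shock genes were higher in replicate 3 of both groups, though not the list as a whole. Of 20 tested, 10 lay above the range in both groups and 5 below (20.1% and 19.4% of all tested genes did). The medians were 0.057 in control and 0.198 after ABS. The summed level was 12045, 11989 and 12524 CPM in control replicates 1, 2 and 3. After ABS it was 13025, 13576 and 13058 CPM, with replicate 3 between the others. Genes that were higher are given here. *HSPA1A*, an inducible HSP70 gene, was at 86.3, 91.6 and 139 CPM in control and at 100, 85.2 and 154 CPM after ABS, but its reads cannot be fully told from those of its near-identical copy *HSPA1B*. *HSPH1*, a cochaperone of HSP70, was at 184, 186 and 282 CPM and at 207, 204 and 295 CPM. *CHORDC1*, a partner of HSP90, was at 29.8, 28.2 and 51.5 CPM and at 38.3, 40.2 and 62.2 CPM. For *HSPA1A*, *HSPH1* and *CHORDC1* both replicate 3 libraries lay above all 4 others.

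Proliferation genes did not set replicate 3 apart as a group. Of 32 S phase genes 4 lay above and 7 below the range in both groups, with medians of −0.013 and 0.019. Of 30 genes of G2 and mitosis 5 lay above and 9 below, with −0.053 and −0.032. Over all tested genes, 20.1% lay above and 19.4% below. *MKI67*, the proliferation marker, was at 297, 301 and 452 CPM in control and at 332, 315 and 436 CPM after ABS, whereas *TOP2A*, a topoisomerase of the same phase, was at 316, 308 and 332 CPM and at 324, 341 and 343 CPM. The log2 difference of *MKI67*, with an exonic length of 12807 bases, was 0.597 in control and 0.431 after ABS. The longest of the 10 groups of genes above had medians of 0.135 and 0.041. The part of length in the *MKI67* difference was not tested.

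The treatment response differed between the replicate 3 pair and replicates 1 and 2. With treatment, replicate set and their product as terms, 328 of 13768 genes (2.38%) passed the product term at an adjusted p of 0.05 by edgeR's quasi-likelihood F-test with Benjamini-Hochberg adjustment, and 1905 (13.8%) had an unadjusted p under 0.05. The response was lower in the replicate 3 pair for 248 genes (1.8%) and higher for 80 (0.581%). The spread in this fit comes from replicates 1 and 2 alone, with 2 residual degrees of freedom and a biological coefficient of variation of 6.34%. Setting aside as a group the libraries that stood apart lowers this spread by construction, by an amount that was not tested. Each replicate 3 library, 1 per arm, is assumed to vary as little. DESeq2 called 181 genes, with no adjusted p for 63 of the 328, and with the trends on length and GC content removed 211 genes passed, 193 of them among the 328.

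In the 248 genes with a lower product term, ABS was above control in replicates 1 and 2 for all 248, with a median log2 difference of 0.433, while in the replicate 3 pair the median was −0.087 and 76 were positive. Choice by a lower product term itself favours these signs, so the values describe the called genes and are no separate evidence. Among them the gap came from both arms. Control replicate 3 was above the other controls by a median of 0.322 and by at least 1.5-fold in 62 genes, and ABS replicate 3 was below the other ABS libraries by a median of −0.229 and by at least 1.5-fold in 20. In the 80 genes with a higher product term, chosen the same way, the medians were −0.351 for control replicate 3 and 0.271 for ABS replicate 3. A fold change of the response therefore cannot be assigned to 1 of the arms in general, and the values of each library are given.

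**Figure D4:**
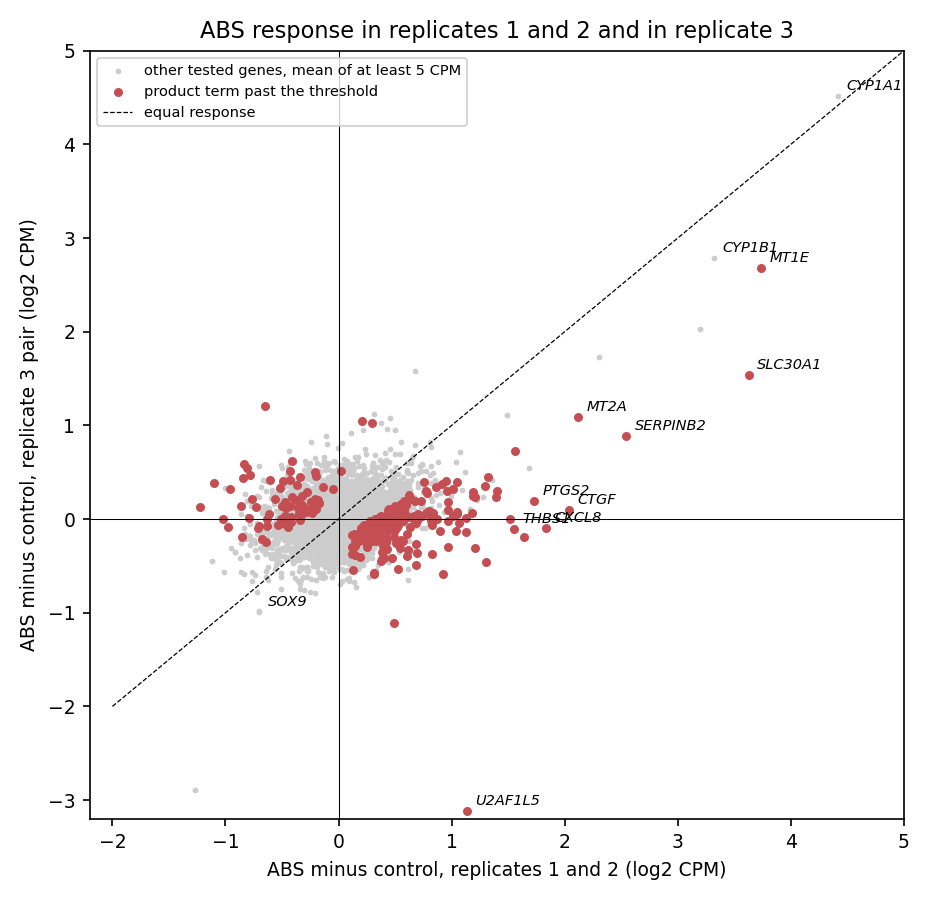
Log2 CPM difference between ABS and control in replicates 1 and 2 (horizontal) and in the replicate 3 pair (vertical) for genes with a mean of at least 5 CPM, with genes past the product-term threshold in red and a dashed line of equal response. *CYP1A1* lies near the dashed line, while *CTGF*, *CXCL8* and *THBS1*, 1.5 or more on the horizontal axis, lie near 0 on the vertical one.

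NF-kB genes were high in control replicate 3 and changed little between it and ABS replicate 3. Of 23 tested members of the NF-kB list, 9 passed with a lower product term and 1, *TNFAIP2*, with a higher one (2.38% of all tested genes passed). Control replicate 3 was at least 1.5-fold higher than the other controls in 10 of the 23, as it was in 6.43% of all tested genes. In both groups, 8 of the 23 lay above the range of replicates 1 and 2 and 1 below (20.1% and 19.4% of all tested genes did). The median difference of replicate 3 was 0.447 in control and 0.044 after ABS. The median response of the list was 0.665 in replicates 1 and 2 and 0.127 in the replicate 3 pair. DESeq2, which gave no adjusted p for many genes of low counts, called 3 of the list lower, and the other alternatives called 7 to 10.

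*CXCL8* (chromosome 4, 73740506 to 73743716), the chemokine that draws neutrophils, was at 6.55 and 7.01 CPM in control replicates 1 and 2 and 37.4 CPM in control replicate 3, a 5.47-fold difference. After ABS it was at 25.4, 23.4 and 34.9 CPM. It rose with ABS 3.56-fold within replicates 1 and 2, and in the replicate 3 pair the ratio was 0.933, a product term of −1.95 ± 0.19 (SE; edgeR adjusted p 2.14e-08). Control replicate 3 thus lay above every ABS library. *CXCL1*, a chemokine of the same family, was at 11.9, 11.2 and 38.7 CPM in control and at 20.5, 23.4 and 25.8 CPM after ABS (product term −1.51 ± 0.19, edgeR adjusted p 3.05e-06).

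*TNFAIP3*, the A20 feedback inhibitor of NF-kB, was at 88.2, 83.4 and 189 CPM in control and at 191, 185 and 172 CPM after ABS, so that control replicate 3 stood at the level of the ABS libraries. *NFKBIA*, the inhibitor IkB-alpha, was at 59.0, 59.3 and 112 CPM and at 113, 118 and 127 CPM. *PTGS2*, cyclooxygenase 2, was at 15.4, 13.8 and 27.5 CPM in control and at 49.1, 48.0 and 31.4 CPM after ABS, with both replicate 3 libraries between the other controls and the other ABS libraries. Their product terms were −1.27, −0.79 and −1.54. *BIRC3*, an inhibitor of apoptosis, was at 32.8, 29.7 and 55.6 CPM and at 72.9, 69.4 and 68.2 CPM (product term −0.89 ± 0.14, edgeR adjusted p 0.000152). *MAP3K14*, the kinase of the noncanonical NF-kB arm and no member of the list, was at 13.1, 17.1 and 49.8 CPM and at 42.0, 44.1 and 49.8 CPM. *TNFAIP3*, *NFKBIA*, *PTGS2*, *BIRC3* and *MAP3K14* passed in all alternatives that gave them an adjusted p.

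YAP-TEAD targets showed the same arrangement of libraries. Of 21 tested, 8 passed with a lower product term and 0 with a higher one (1.8% and 0.581% of all tested genes did). In both groups, 9 of the 21 lay above the range of replicates 1 and 2 and 0 below (20.1% and 19.4% of all tested genes did). The median difference of replicate 3 was 0.416 in control and 0.006 after ABS. The median response of the 21 was 0.295 in replicates 1 and 2 and −0.126 in the replicate 3 pair. DESeq2 called 4 of them lower, and the other alternatives 6 to 9. *CTGF* (chromosome 6, 131948176 to 131951373), a matricellular growth factor and textbook YAP target, was at 3.36, 3.96 and 13.8 CPM in control and at 15.5, 15 and 14.8 CPM after ABS. It rose 4.12-fold within replicates 1 and 2, and the ratio in the replicate 3 pair was 1.07 (product term −1.97 ± 0.27, edgeR adjusted p 9.24e-06). *CYR61*, its close relative, was at 51.0, 55.7 and 129 CPM and at 111, 112 and 126 CPM. *EDN1*, the vasoconstrictor endothelin 1, was at 6.25, 6.23 and 23.5 CPM and at 19.2, 20.1 and 20.5 CPM. In *CTGF*, *CYR61* and *EDN1* control replicate 3 lay far above the other controls and near the ABS libraries.

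Genes of the matrix and the plasminogen system held further large product terms. *THBS1*, thrombospondin 1, was at 75.1, 58.8 and 186 CPM in control and at 185, 205 and 173 CPM after ABS (product term −1.65 ± 0.12, edgeR adjusted p 4.23e-11). *SERPINB2*, plasminogen activator inhibitor 2, was at 10.4, 10.6 and 31.6 CPM and at 64.1, 59.8 and 58.6 CPM, and rose 5.84-fold within replicates 1 and 2 against a ratio of 1.85 in the replicate 3 pair. *FST*, follistatin, which binds activin, was at 18.9, 16.0 and 31.6 CPM and at 39.0, 47.3 and 22.9 CPM, so that it was higher after ABS in replicates 1 and 2 and lower in the replicate 3 pair. Of 23 extracellular matrix and integrin genes 9 passed with a lower product term and 0 with a higher one (1.8% and 0.581% of all tested genes did). Among the 9 was *LAMB3* (−0.77 ± 0.09, edgeR adjusted p 1.74e-07), a chain of the epithelial laminin 332. The list of immediate-early genes and MAPK feedback had 8 of 28 lower and 0 higher, beside the same 1.8% and 0.581%. *FOSL1* (−0.43), *ATF3* (−0.94) and *CCND1* (−0.29) were included, though *ATF3* and *CCND1* each missed the threshold in 4 alternatives. *FOSB* had a product term of −1.16 and an edgeR adjusted p of 0.148, and *MYC* one of −0.23 and 0.135.

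Of 24 tested tight and adherens junction genes 3 passed with a lower product term and 0 with a higher one (12.5%, against 2.38% of all genes). *CLDN4*, claudin 4, was at 799, 834 and 1069 CPM in control and at 1441, 1441 and 1060 CPM after ABS. The ratio of ABS to control was 1.76 in replicates 1 and 2 and 0.991 in the replicate 3 pair, and the product term was −0.83 ± 0.08 (SE; edgeR adjusted p 3.44e-09). *OCLN*, occludin, was at 60.0, 58.2 and 76.8 CPM and at 93.7, 96.2 and 77.4 CPM, with ratios of 1.61 and 1.01. For both genes the 2 replicate 3 libraries lay between the other controls and the other ABS libraries and close to each other.

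Most zinc and metallothionein genes were higher after ABS within replicates 1 and 2, where 8 of 10 were called higher and 0 lower. Over all tested genes it was 7.95% and 5.44%. The median response of the list was smaller in the replicate 3 pair. *SLC30A1* (chromosome 1, 211571568 to 211578742), the zinc exporter, was at 20.4, 20.3 and 53 CPM in control and at 242, 263 and 154 CPM after ABS. The ratio of ABS to control was 12.4 in replicates 1 and 2 and 2.90 in the replicate 3 pair, with a product term of −2.10 ± 0.11 (SE; edgeR adjusted p 5.16e-15) that passed in all 12 alternatives. *MT2A*, the most widely expressed metallothionein gene, was at 42.1, 54.5 and 94.5 CPM and at 223, 195 and 201 CPM. *MT1E* was at 3.15, 5.23 and 8.52 CPM and at 60.9, 50.01 and 55.1 CPM. For both metallothionein genes the replicate 3 pair differed through its control, since ABS replicate 3 lay within the range of the other ABS libraries. Their product terms were −1.03 and −1.04, of which the first missed the threshold with DESeq2 and with the robust fit (adjusted p 0.0829 and 0.189) and the second with limma-voom and without control replicate 1 (0.0584 and 0.0703). Of 10 tested genes of the list 3 passed as lower and 0 as higher (1.8% and 0.581% of all tested genes did). The median response of the list was 2.87 in replicates 1 and 2 and 1.78 in the replicate 3 pair.

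Antioxidant genes under NRF2 had 5 of 26 members with a lower product term and 0 with a higher one (1.8% and 0.581% of all tested genes). *TXNRD1*, a thioredoxin reductase, was at 757, 748 and 795 CPM in control and at 1193, 1211 and 912 CPM after ABS (product term −0.48 ± 0.08, edgeR adjusted p 0.000123). *GCLM*, the modifier subunit of glutamate-cysteine ligase in glutathione synthesis, had a product term of −0.36 and an adjusted p of 0.0399 that was lost in 8 of 12 alternatives. *HMOX1* (−0.05) and *NFE2L2* (−0.33) had edgeR adjusted p of 0.975 and 0.0956. In *TXNRD1* the difference lay in the ABS arm, in contrast to the metallothionein genes.

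Targets of the aryl hydrocarbon receptor, a sensor of planar foreign compounds, had 0 of 10 members past the product term by edgeR, where 2.38% of all genes passed, a share at which a list of this size need hold none. At an unadjusted p under 0.05 it was 4 of 10, against 13.8% of all genes. DESeq2 also called 0, no filter and the robust fit called 1 each, and 3 were called without control replicate 1 and 2 without ABS replicate 1. *CYP1A1*, its main target, was at 2.13, 2.14 and 3.06 CPM in control and at 46.3, 48.0 and 72 CPM after ABS, a ratio of 21.3 in replicates 1 and 2 and 22.9 in the replicate 3 pair (product term 0.09 ± 0.26, edgeR adjusted p 0.935). *CYP1B1* was at 6.93, 5.10 and 8.48 CPM and at 58.7, 61.8 and 58.9 CPM (−0.52 ± 0.21, adjusted p 0.234). *TIPARP* had a product term of −0.35 and an adjusted p of 0.104, which passed without control replicate 1, without ABS replicate 1 and without a filter, and *CYP1B1* passed without control replicate 1. *SOX9*, a progenitor transcription factor, was at 177, 177 and 179 CPM in control and at 108, 110 and 90.0 CPM after ABS, lower in both sets of libraries (−0.29 ± 0.10, adjusted p 0.114). *SOCS1* (−0.58), *OASL* (−0.96), *IFIT3* (0.19) and *TXNIP* (0.00) had edgeR adjusted p between 0.165 and 0.993.

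**Figure D5:**
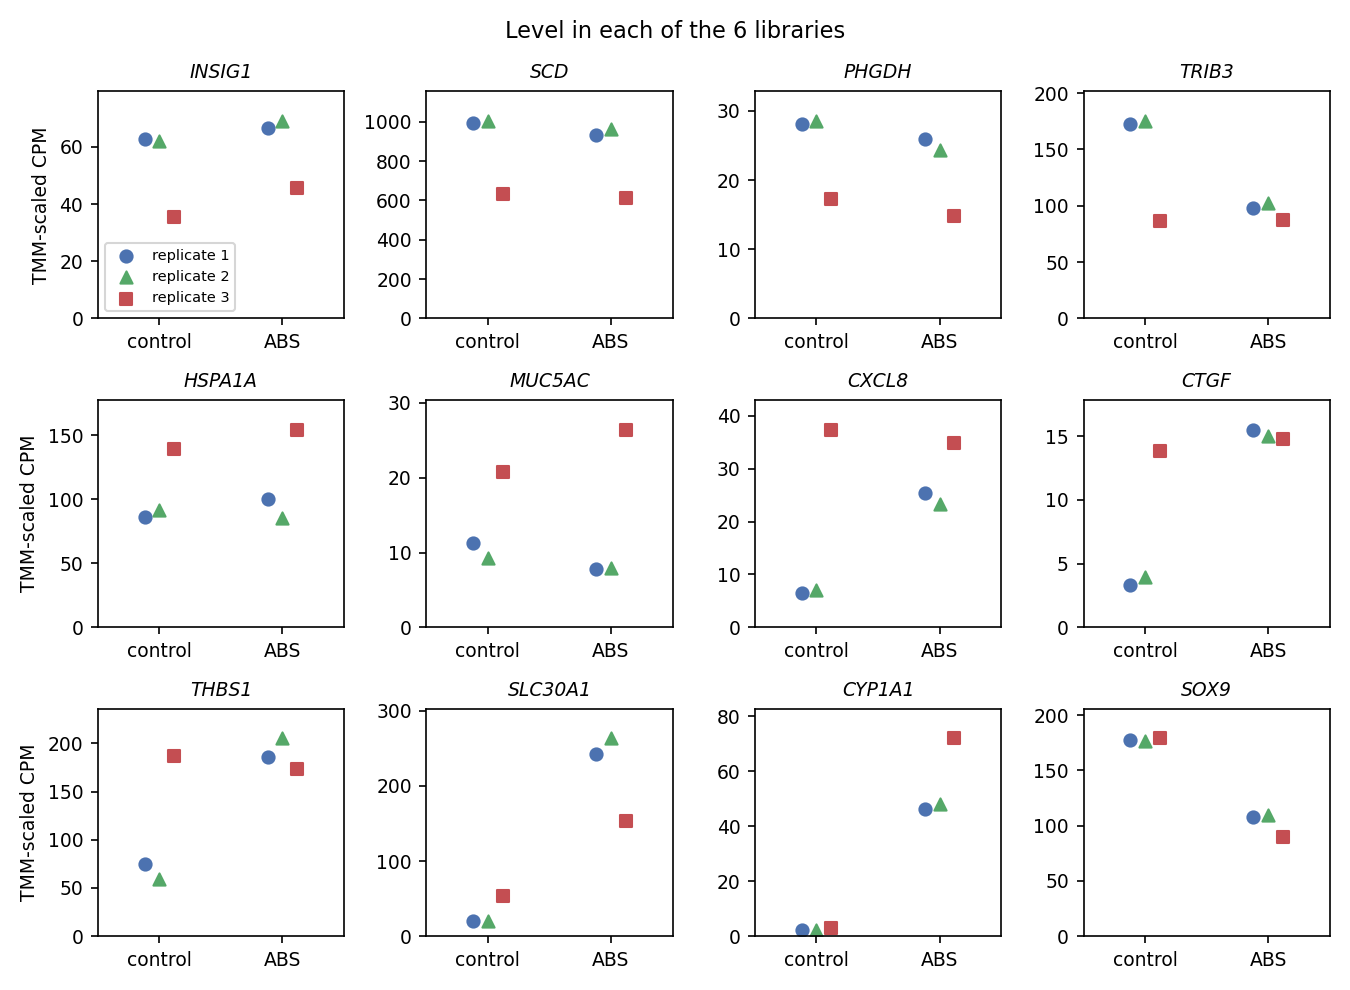
TMM-scaled CPM in each of the 6 libraries for 12 genes on axes that start at 0, with replicates 1, 2 and 3 as circles, triangles and squares. Replicate 3 is lowest in both groups for *INSIG1*, *SCD* and *PHGDH* and highest in both for *HSPA1A* and *MUC5AC*, while for *CXCL8*, *CTGF* and *THBS1* control replicate 3 stands near the ABS libraries.

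Genes with a higher product term were mostly lower after ABS in replicates 1 and 2 and not in the replicate 3 pair, which choice by that term favours. *EPN3*, an adaptor of endocytosis, was at 60.3, 69.3 and 43.8 CPM in control and at 36.3, 35.5 and 59.5 CPM after ABS (product term 1.30 ± 0.15, edgeR adjusted p 6.75e-07). *IER5L*, a nuclear protein of the immediate-early response family, was at 32.8, 35.1 and 23.5 CPM and at 18.4, 20.3 and 34.3 CPM (1.36 ± 0.18, adjusted p 5.59e-06). In both genes ABS replicate 3 lay above control replicate 3 while the other ABS libraries lay below their controls. *SOX21*, a transcription factor, was at 35.7, 36.4 and 20.7 CPM and at 17.1, 18.4 and 20.8 CPM (1.03 ± 0.19, adjusted p 0.000766), so that both replicate 3 libraries stood near the level of the other ABS libraries.

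The other genes named by rank were *OSBPL7* (product term 1.90), *RBBP8NL* (1.49), *THRA* (1.44), *HOXA13* (1.31), *PRR5L* (1.26), *SESN2* (1.04) and *ID3* (1.02). *RBBP8NL*, *THRA*, *HOXA13*, *SESN2* and *ID3* missed the threshold once the trends on length and GC content were removed, at adjusted p of 0.0556 to 0.0974. *HOXA13* also missed it with library size alone and without control replicate 1 (0.0552 and 0.18), *THRA* without control replicate 2 (0.0596) and *SESN2* with limma-voom (0.0566). On the lower side *U2AF1L5* (−4.26) and *GATD3A* (−1.62) belong to genes with near-identical copies on chromosome 21, and their counts are uncertain. *U2AF1L5* was at 3.27, 6.96 and 33.6 CPM in control and at 13.9, 8.09 and 3.81 CPM after ABS, and the robust fit gave it an adjusted p of 0.285. Mitochondrially encoded mRNAs had 5 of 13 members higher and 0 lower (0.581% and 1.8% of all tested genes), and between 3 and 7 higher over the alternatives. *MT-CO1* was at 7471, 7321 and 5717 CPM in control and at 6092, 6775 and 6152 CPM after ABS. Control replicate 3 was its lowest library. Its product term of 0.31 (edgeR adjusted p 0.02) missed the threshold with the replicate block (0.0585), without ABS replicate 1 (0.12) and with the trends on length and GC content removed (0.0935).

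The replicate 3 pair was also used to read the genes called within replicates 1 and 2, a fit that shares no library with it. Within replicates 1 and 2, 1844 genes (13.4%) passed, 1095 higher (7.95%) and 749 lower (5.44%) after ABS, at 2 residual degrees of freedom. Leaving out the libraries that stood apart lowers the spread of this fit by construction. With library size alone, 937 genes passed as higher and 861 as lower. Of the 1844 genes, 58.7% had the same direction in the replicate 3 pair. Among the 1095 higher genes it was 619, or 56.5% (exact binomial 95% interval 53.5 to 59.5, which treats genes as independent and they are not), and their median ratio of ABS to control was 1.27 in replicates 1 and 2 and 1.02 in the replicate 3 pair. Among the 749 lower genes it was 464, or 61.9%, with median ratios of 0.784 and 0.971. These genes were chosen by their values in replicates 1 and 2, which by itself favours larger changes there than in the replicate 3 pair. How much of the gap comes from that choice was not tested.

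Among the higher genes the share differed with the size of the change. It was 43.3% for the 494 genes of the smallest change (median ratio 1.17), 62.3% for the next 385 (1.34), 79.4% for 131 genes from 1.5-fold to 2-fold and 71.8% for 85 genes of 2-fold or more. In the last class the median ratio was 2.59 in replicates 1 and 2 and 1.18 in the replicate 3 pair, and 25 of the 85 reached 1.5-fold there. Among the lower genes the corresponding shares were 60.7%, 65.5% and, at 1.5-fold or more, 58.4%. Read the other way, 75 genes with a mean of at least 5 CPM were at least 1.5-fold higher after ABS in the replicate 3 pair, of which 54 were also higher in replicates 1 and 2 and 29 were called there. Another 39 were at least 1.5-fold lower in that pair, of which 28 were also lower in replicates 1 and 2. The replicate 3 pair has 1 library per group, so its own response has no replicate check.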

How the data were processed

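Total counts per library lay between 22145676 and 25235686. The authors deposited a single table of unnormalized read counts for 58735 genes, of which 33778 had 0 counts throughout. HISAT2 2.0.5, featureCounts 1.5.0-p3 and GRCh38 are named in the submitters' processing notes. Strand use in counting and the handling of multi-mapped reads are not given in the sources used here, so antisense genes and near-identical copies are uncertain. Gene length is the exonic length in the deposited table, and GC content comes from GENCODE 29 transcripts.

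Counts were filtered with filterByExpr (minimum count 10, minimum total 15) and scaled by TMM in edgeR 4.0.16 (R 4.3.3). The product term was tested in all 6 libraries, and ABS against control within replicates 1 and 2, by quasi-likelihood F-tests with adjustment over all 13768 tested genes at a threshold of 0.05. SE is the log2 value divided by the square root of F. Of these fits, only that of the product term was tried on simulated counts. There replicate 3 varied as the other replicates did, so libraries that stand apart were not covered. The median difference over all genes stayed within 0.1 (log2) under each scaling. limma 3.58.1 and DESeq2 1.42.0 gave alternatives, as did other scalings, filters, prior counts, fold limits and leaving out single libraries.

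Genes are named as the 12 largest differences in each direction among protein-coding genes apart with a mean of at least 5 CPM (10 were lower), 3 members of lists with 3 or more members apart, the 10 largest product terms in each direction, and a fixed set of 27. Other genes were named after their values were seen. The 2 libraries, the lists and the tests were chosen with earlier results of these data known. P-values measure only the spread between these libraries. The binomial interval treats genes as independent and holds no spread between libraries. Some genes that the naming rule covers are not reported here.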

Additional observations from a re-analysis of the deposited data

Results flagged for a closer look

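The response to ABS differed between the replicate 3 pair and replicates 1 and 2, by a test of the difference itself, for 328 genes. The named genes among them are given with their product term, the log2 response in the replicate 3 pair minus that in replicates 1 and 2. The term was higher in the replicate 3 pair for *OSBPL7* (1.90), *RBBP8NL* (1.49), *THRA* (1.44), *IER5L* (1.36), *HOXA13* (1.31), *EPN3* (1.30), *PRR5L* (1.26), *SESN2* (1.04), *SOX21* (1.03), *ID3* (1.02), *TRIB3* (0.81) and *MT-CO1* (0.31). It was lower for *U2AF1L5* (−4.26), *SLC30A1* (−2.10), *CTGF* (−1.97), *CXCL8* (−1.95), *EDN1* (−1.84), *FST* (−1.77), *SERPINB2* (−1.67), *THBS1* (−1.65), *GATD3A* (−1.62), *PTGS2* (−1.54), *MAP3K14* (−1.52), *CXCL1* (−1.51), *TNFAIP3* (−1.27) and *AMOTL2* (−1.16). Smaller lower terms were found for *CYR61* (−1.11), *MT1E* (−1.04), *MT2A* (−1.03), *ATF3* (−0.94), *BIRC3* (−0.89), *CLDN4* (−0.83), *NFKBIA* (−0.79), *OCLN* (−0.67), *TXNRD1* (−0.48), *HSPA8* (−0.46), *FOSL1* (−0.43), *GCLM* (−0.36) and *CCND1* (−0.29). Each rests on 1 library per group in the replicate 3 pair. No explanation was weighed, and groups of 3 libraries are too small for a check of single outlying samples.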

How the results depend on the processing

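The count of 328 genes past the product term was 181 with DESeq2, which gave no adjusted p for 63 of the 328, and 211 with the trends on GC content and length removed, an alternative chosen after seeing the data. It lay between 296 and 441 without single libraries. With library size alone the split was 78 higher and 178 lower, in place of 80 and 248. The count of 1844 genes within replicates 1 and 2 was 1118 to 1523 without single libraries, lowest without ABS replicate 2 and 1210 without control replicate 2, which leaves 1 residual degree of freedom, and 1251 with DESeq2. The 332 genes apart were 1125 without a filter, 62 at 2-fold, 1111 at the lower fold limit, 35 with a mean of at least 5 CPM (added after seeing the data) and 330 to 407 without single libraries. The share with the same direction in the replicate 3 pair, 58.7%, was 61.1% with DESeq2, 61.8% with the trends removed and 59.3% to 62.1% without single libraries, the highest without control replicate 2. Where a cause is not given, it was not tested.

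Same-numbered libraries deviated together by correlations of 0.043, 0.033 and 0.167 over all tested genes and of 0.137, 0.107 and 0.353 over genes with a mean of at least 5 CPM. Among the latter, control replicate 1 and ABS replicate 2 had 0.269 and control replicate 2 and ABS replicate 1 had 0.144, above the same-numbered pairs of replicates 1 and 2. Whether the numbers pair the samples therefore was not settled by these values, and the labels do not say. With a replicate block, 258 genes passed the product term (65 higher, 193 lower) and 1622 passed within replicates 1 and 2. Among named genes the block ended the call of *GCLM* (adjusted p 0.103), *CCND1* (0.14) and *MT-CO1* (0.0585), gave one to *DDIT4* (0.0416) and changed no other. For single named genes, 949 of the recomputed product terms stayed on their side of the threshold, 34 lost and 24 gained the call, and 0 changed direction with a call.

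A count of 0 allows up to 3 counts, which at these depths is 0.119 to 0.135 CPM. Differences of genes below 1 CPM, which make up 169 of the 332 genes apart, rest on few counts. Each replicate 3 arm is 1 library, so no spread of the replicate 3 state can be given.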

Other observations

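Further gene groups are given as values, beside the 20.1% of all tested genes that lay above and the 19.4% that lay below the range of replicates 1 and 2 in both groups. Of 12 mucin and trefoil genes 5 lay above and 2 below, with medians of −0.081 in control and 0.208 after ABS. *MUC4*, a membrane mucin, was at 40.8, 33.4 and 52.1 CPM in control and at 32.8, 31.3 and 58.8 CPM after ABS, and *TFF1*, a secreted trefoil peptide, at 9.99, 8.51 and 10.1 CPM and at 8.63, 8.18 and 11.8 CPM. Wnt feedback genes lay above the range of replicates 1 and 2 in both groups in 6 of 15 cases and below it in 1, with medians of 0.069 in control and 0.222 after ABS. *AXIN2*, which encodes a scaffold of beta-catenin destruction, was at 6.08, 6.78 and 7.82 CPM and at 5.85, 5.29 and 8.87 CPM. Interferon-stimulated genes lay above the range in 8 of 32 cases and below it in 5, near the shares of all genes, with medians of 0.132 and 0.078.

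Of 14 tested genes of the EGF family and its receptors 4 passed with a lower product term and 1, *GRB7*, with a higher one. Over all tested genes it was 1.8% and 0.581%. *AREG*, amphiregulin, was at 159, 162 and 195 CPM in control and at 228, 230 and 163 CPM after ABS, and *EREG*, epiregulin, at 549, 540 and 635 CPM and at 822, 835 and 652 CPM. In both, ABS replicate 3 lay below the other ABS libraries. *ID1*, an inhibitor of differentiation, was at 425, 417 and 304 CPM in control and at 268, 280 and 315 CPM after ABS.

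Sense-intronic genes, annotated inside introns of other genes, had the largest share of genes apart among annotation classes with at least 20 tested genes, 10 of 59 (16.9%), all higher in replicate 3, with median differences of 0.42 in control and 0.279 after ABS at a median level of 0.759 CPM. Protein-coding genes had 1.71% apart, at a median level of 29.7 CPM. Of all tested genes with a mean below 1 CPM, 11.3% were apart. The strand setting of the counting is not given in the sources used here, so reads of these genes cannot be told from those of the genes around them.

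*EIF3CL*, a near-identical copy of another gene, was at 8.08, 141 and 65.6 CPM in control and at 9.04, 21.6 and 8.79 CPM after ABS. Replicates 1 and 2 differed widely for it in both groups, and its counts are uncertain.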
